A study of Mus musculus with 22 samples.

Results

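In regulatory T cells (Treg cells) of wild-type mice, 329 of the 10885 genomic regions bound by Foxp3 in both libraries, 3.02%, overlapped no peak of Ikaros. These Foxp3 sites without Ikaros were chosen from the peak lists of WT cells: peaks of the 2 WT Foxp3 lists were joined where they shared at least 1 bp, joined regions with a peak in both lists were kept, and those that touched any peak of either WT Ikaros list were set aside. Of the regions set aside, 1140 (10.5%) had Ikaros in 1 list and 9416 (86.5%) had it in both. The presence of Foxp3 and the absence of Ikaros in WT are therefore the choice itself and not a result. With a single Ikaros library in place of both, 645 (library 2) or 1153 (library 1) regions would have been without Ikaros. What the choice did not use are the 14 other lists: Foxp3 in mutant cells, and p300, NFAT1 and H3K27ac, the acetylated form of lysine 27 on histone H3, in both genotypes.

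The measurements were chromatin immunoprecipitation followed by sequencing (ChIP-seq) on mouse Treg cells isolated from spleen and lymph nodes. Both genotypes had been stimulated for 1 h before fixation. The mutant cells are labelled IkE5-deletion and are written IkE5 here; the label is not expanded, the title of the series names Ikzf1, the gene of Ikaros, and no list of Ikaros in IkE5 cells was analysed here. Neither the driver of the deletion nor the age of the mice is given in the labels, and the control cells are labelled WT. Foxp3, p300, NFAT1 and H3K27ac had 2 libraries per genotype, and Ikaros had 2 in WT.

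Foxp3 is the forkhead transcription factor that defines the Treg lineage, and it both represses and activates genes in complexes with other factors. Ikaros is a zinc finger DNA-binding protein of lymphocytes that recruits corepressors such as the NuRD complex. p300 is a histone acetyltransferase found at active enhancers, H3K27ac marks active enhancers and promoters, and NFAT1 is a calcium-activated factor that enters the nucleus after T cell receptor signalling and can bind DNA together with Foxp3.

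The lists differed in length. Foxp3 had 21619 and 17265 peaks in IkE5, against 20608 and 16526 in WT. p300 had 11670 and 8971 in IkE5, against 11457 and 8775 in WT. NFAT1 had 4908 and 3435 in IkE5, against 7825 and 6850 in WT. H3K27ac covered 72.9 and 62.1 Mb in IkE5, against 79.6 and 54.6 Mb in WT, and the 2 WT Ikaros lists held 22297 and 26641 peaks. Library 1 had more peaks than library 2 of the same genotype for each of these 4 targets. The lists carry no reads, so the read depth of a library is unknown, and no height can be given for a peak. The 5 Treg markers and 3 T cell markers examined (Foxp3, Il2ra, Ctla4, Ikzf2 and Tnfrsf18; Cd3e, Cd4 and Lck) had H3K27ac within 2 kb of a gene end in all 4 H3K27ac libraries. Of markers of other cells, 4 and 3 of 12 B cell genes had it in IkE5 libraries, against 5 and 3 in WT. Of 12 myeloid genes, 4 and 4 had it in IkE5, against 4 and 2 in WT. Of 11 CD8 T and natural killer cell genes, 4 and 3 had it in IkE5, against 6 and 5 in WT. In such bulk samples, fewer cells with a peak and a weaker peak in each cell cannot be told apart, and the part of other cell types in the results was not tested.

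The promoters under Foxp3 sites without Ikaros are shown first, because a motif for Ikaros could be looked for there directly. Sequences are those of RefSeq (GRCm38.p6, the assembly of mm10), on the strand of the gene from 5′ to 3′, limited to the part of the promoter that lies inside the Foxp3 region. Of the 8 such promoters present in most other lists, 5 are printed: 3 that lie whole inside a region with the nearest Ikaros peak more than 1 kb away, and the 2 that hold the Ikaros core. Capitals mark TGGGAA or its reverse complement TTCCCA, the core of the known Ikaros motif, and TGACGTCA, the cAMP response element; the forkhead motif TGTTTAC was also searched on both strands and was in none of the 5. Dusp1 encodes a phosphatase of mitogen-activated protein kinases that is induced early upon activation (chr17:26508423-26508722, minus strand). Trim24 encodes a transcriptional co-regulator (chr6:37870561-37870860, plus strand), and 4930522L14Rik is a gene named only by its clone (chr5:109751538-109751837, minus strand). Pheta1 encodes an adaptor of endosomal traffic (chr5:121848749-121849046, plus strand), and Bzw1 a regulator of translation (chr1:58392775-58392947, plus strand).
Dusp1: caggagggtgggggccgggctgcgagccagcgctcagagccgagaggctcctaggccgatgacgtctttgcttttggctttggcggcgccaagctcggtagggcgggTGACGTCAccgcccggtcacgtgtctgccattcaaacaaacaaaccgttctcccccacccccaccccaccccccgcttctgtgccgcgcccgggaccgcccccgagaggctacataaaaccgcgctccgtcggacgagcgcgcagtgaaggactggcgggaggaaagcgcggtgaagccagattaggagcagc
Trim24: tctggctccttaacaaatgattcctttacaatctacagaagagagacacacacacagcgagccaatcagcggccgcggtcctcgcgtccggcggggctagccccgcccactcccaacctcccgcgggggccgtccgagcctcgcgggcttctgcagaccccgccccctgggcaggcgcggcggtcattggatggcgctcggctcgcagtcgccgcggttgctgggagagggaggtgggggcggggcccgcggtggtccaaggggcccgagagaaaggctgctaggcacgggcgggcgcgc
4930522L14Rik: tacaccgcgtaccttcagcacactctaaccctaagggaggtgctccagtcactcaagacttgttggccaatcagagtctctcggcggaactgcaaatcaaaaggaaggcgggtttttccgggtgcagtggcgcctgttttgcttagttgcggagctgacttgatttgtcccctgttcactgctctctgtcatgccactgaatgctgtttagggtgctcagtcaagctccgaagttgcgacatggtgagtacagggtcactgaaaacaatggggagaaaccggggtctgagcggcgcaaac
Pheta1: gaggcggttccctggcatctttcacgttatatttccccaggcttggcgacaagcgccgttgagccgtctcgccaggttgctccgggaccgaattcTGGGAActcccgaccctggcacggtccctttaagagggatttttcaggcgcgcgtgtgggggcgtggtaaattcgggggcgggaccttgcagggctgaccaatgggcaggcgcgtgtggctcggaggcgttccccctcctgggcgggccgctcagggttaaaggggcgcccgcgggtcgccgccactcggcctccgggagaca
Bzw1: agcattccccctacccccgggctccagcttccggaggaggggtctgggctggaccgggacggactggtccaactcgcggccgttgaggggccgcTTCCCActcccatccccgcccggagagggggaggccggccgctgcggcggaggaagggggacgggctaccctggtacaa

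The Ikaros core was in 7 of 34 promoters (20.6%) with at least 150 bases inside a Foxp3 site without Ikaros, against 22.6% of 4241 promoters under Foxp3 regions with Ikaros and 24.5% of all 21263 promoters. The 300 bases of each promoter, 250 before the start and 50 after it, were searched. The Ets motif CCGGAAGT was in 3 of the 34 (8.82%), against 15.7% of promoters under Foxp3 regions with Ikaros and 5.15% of all promoters. The forkhead motif was in 3 of 34 (8.82%), against 2.9% with Ikaros and 3.01% of all. The Runx motif TGTGGTT was in 1 (2.94%), against 4.08% with Ikaros and 4.71% of all. The AP-1 motif TGANTCA was in 2 (5.88%), against 4.2% with Ikaros and 6.99% of all, and the cAMP response element in 1 (2.94%, the Dusp1 promoter), against 4.9% with Ikaros and 2.23% of all. Both strands were searched, and none of these motifs contains another. A match describes letters only and is not a bound site, and 34 promoters are too few to order these shares. No genome sequence was used here, so the sites away from promoters were not searched.

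A smaller share of Foxp3 sites without Ikaros lay at gene starts than of the other Foxp3 regions. Of the 314 sites with a gene start on their chromosome in the promoter table, 31 (9.87%) had their centre within 500 bp of a start, against 3756 of 10267 (36.6%) of Foxp3 regions with Ikaros. The next interval, 500 bp to 2 kb from a start, held 38 sites (12.1%), against 550 (5.36%) of regions with Ikaros. The median distance to a start was 15.1 kb, against 9.46 kb for regions with Ikaros. With Ikaros in 1 list only, 19.7% lay within 500 bp of a start, but the median distance was 17.2 kb. The share at genes was also smaller when both ends of a gene counted. Within 2 kb of a gene end lay 90 sites (27.4%, 95% Wilson interval 22.8 to 32.4), against 5088 (48.2%) of regions with Ikaros. It was 34.1% with Ikaros in 1 list. Within a gene lay 63.2% of sites, against 71.3% with Ikaros and 66.2% with Ikaros in 1 list. More than 10 kb from any protein-coding gene lay 21.9%, against 18.5% and 22.4% in the same order. Intervals cover counting error only, and regions are not replicates, so these shares carry no test. The annotation used gives gene ends without exons, so exonic and intronic sites could not be told apart, and starts were known for 17492 of 21900 protein-coding genes.

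**Figure D1:**
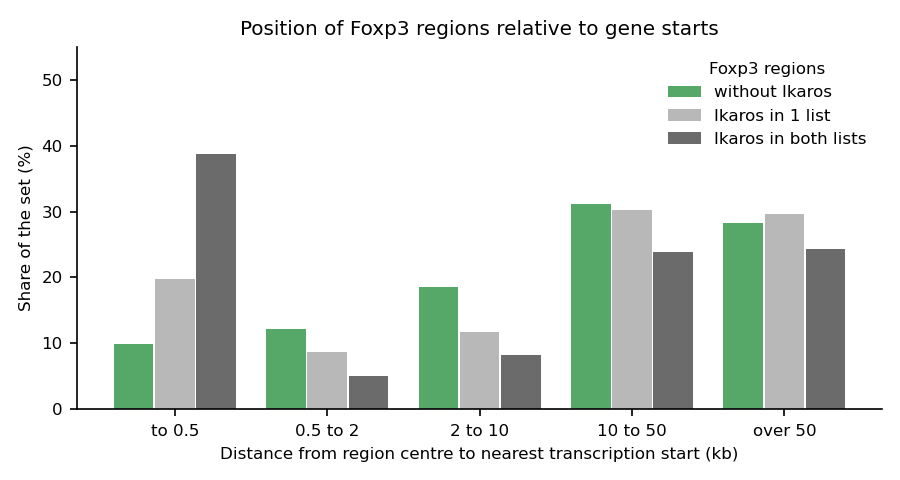
Share of each set of Foxp3 regions (vertical axis, percent) by distance from the region centre to the nearest transcription start (horizontal axis, kb), for regions without Ikaros, with Ikaros in 1 list and with Ikaros in both lists. The share within 0.5 kb of a start was 9.87% without Ikaros and lowest of the 3 sets, and the share between 0.5 and 2 kb, 12.1%, was highest.

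The sites had a median width of 568 bp, against 562 bp for regions with Ikaros. Every WT Foxp3 peak but 1 was listed as 500 bp wide. The width of a region therefore shows only how far its joined peaks were offset, and nothing is concluded from it. The sites had another Foxp3 region within 5 kb in 46 of 329 cases, against 561 of 10556 (5.31%). Chromosomes 2 (28 sites), 1 (27), 11 (25) and 5 (23) held the most, and X held 5.

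Many of the sites had an Ikaros peak nearby. The gap to the nearest Ikaros peak of either list ran from 8 bp to 2.09 Mb, with a median of 4.39 kb and quartiles at 0.769 and 12.3 kb. The rule has a sharp limit, so some members differ little from regions left out. The closest member, on chromosome X 44.7 kb upstream of H2al1a, lay 8 bp from an Ikaros peak. Sites 10.5 kb from Anxa3, 6.64 kb upstream of Gm42226, in Bzw1 and 105 kb from Saraf lay 14, 18, 24 and 24 bp from one. Just outside, the region at Lmbrd1 overlapped Ikaros by 1 bp, and those at Nrarp, Paip2b, Jun and Mtrf1l overlapped by 9, 12, 19 and 28 bp.

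Sites near an Ikaros peak carried p300 and H3K27ac in a larger share than sites far from one. Among the 65 sites with a gap of up to 500 bp, H3K27ac was present at 84.6% and 89.2% in the IkE5 libraries, against 93.8% and 84.6% in the WT libraries. Among the 97 sites more than 10 kb from Ikaros, it was present at 33.0% and 27.8% in IkE5, against 37.1% and 27.8% in WT. p300 followed the same order, with 26.2% and 12.3% in IkE5 and 15.4% and 16.9% in WT at the nearest sites. At the farthest it was found at 6.19% and 1.03% in IkE5 and at 0 and 1.03% in WT; 0 of 97 sites allows a share of up to 3.09%. The Foxp3 peak in IkE5 showed no such order: it was present at 56.9% and 44.6% of the nearest sites and at 52.6% and 44.3% of the farthest. Of the nearest sites, 55.4% lay within 2 kb of a gene end, against 16.5% of the farthest.

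**Figure D2:**
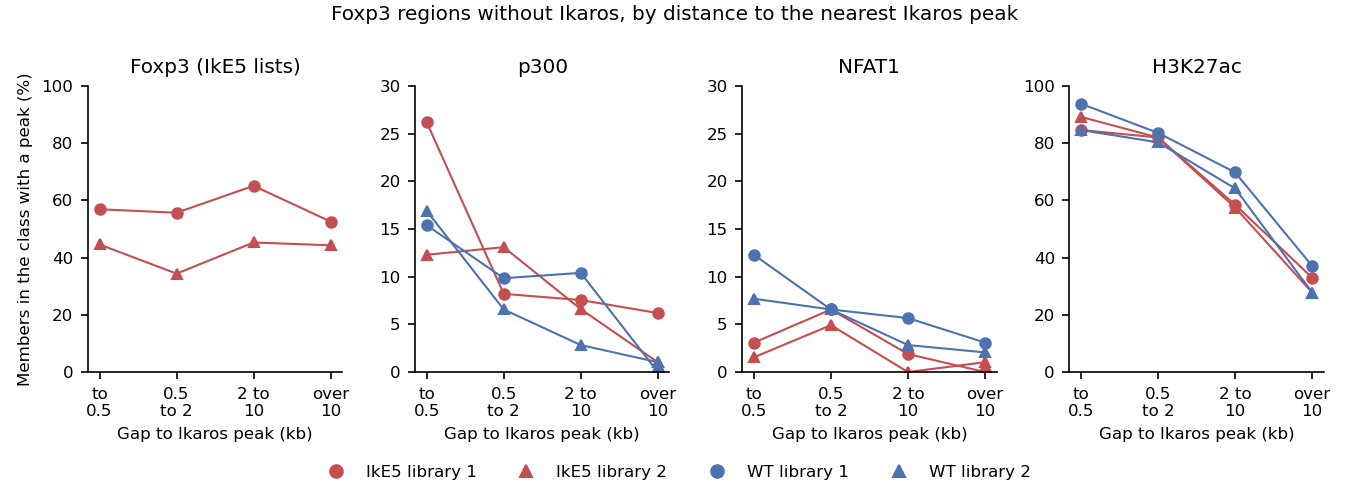
Share of Foxp3 sites without Ikaros that held a peak (vertical axis, percent; the p300 and NFAT1 panels end at 30) by gap to the nearest WT Ikaros peak (horizontal axis, kb), in each IkE5 library (red) and each WT library (blue). H3K27ac was at 84.6% or more of the nearest sites and at 37.1% or less of the farthest in every library, while Foxp3 in IkE5 stayed between 34.4% and 65.1%.

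The 6 sites farthest from Ikaros had none of p300, NFAT1 or H3K27ac in any library. They lay 985 kb from Fam135b (chr15:70452996-70453692), 264 kb from Cbln2 (chr18:86982604-86983105) and upstream of the odorant receptor gene Olfr1216 (chr2:89016808-89017323). The other 3 lay in Cobl, an actin nucleator (chr11:12291377-12291955), Tjp1, a tight junction protein (chr7:65373170-65373881), and Hdac9, a histone deacetylase (chr12:34248954-34249605). Their gaps to Ikaros were 2.09, 1.91, 1.46, 0.318, 0.271 and 0.24 Mb. Foxp3 was found in both IkE5 libraries only at Tjp1, in 1 of them at Fam135b, Olfr1216 and Cobl, and in neither at Cbln2 and Hdac9.

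By acetylation in WT, the sites fell into 4 classes. At 120 sites (36.5%) the site lay in an H3K27ac region joined from peaks of both WT libraries that also held an Ikaros peak elsewhere in it; these regions had a median length of 3.72 kb, and the Ikaros peak was a median of 0.538 kb away. At 78 sites (23.7%) the H3K27ac region held no Ikaros peak, and its median length was 1.79 kb. At 30 sites (9.12%) H3K27ac was in 1 WT list or its peaks did not form a region common to both. At 101 sites (30.7%) neither WT library had H3K27ac. The first 2 classes together held 198 sites (60.2%) in a region joined from both WT libraries, although the site itself did not always touch a peak of each, against 9686 (91.8%) of Foxp3 regions with Ikaros.

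The share with p300 was lowest in the unacetylated class. It was at 17.5% and 10.8% of the sites that shared acetylated chromatin with Ikaros in IkE5, and at 13.3% and 13.3% in WT. At sites acetylated without Ikaros it was at 11.5% and 8.97% in IkE5 and at 10.3% and 1.28% in WT. At sites without WT H3K27ac it was at 3.96% and 1.98% in IkE5 and at 0.99% and 0.99% in WT. Of these 101 unacetylated sites, 15.8% and 9.9% had H3K27ac in the IkE5 libraries. Of the 78 acetylated without Ikaros, 75.6% had it in each IkE5 library. Because WT H3K27ac chose these classes, no comparison of genotypes is drawn in them, for p300 or for H3K27ac. Foxp3 in IkE5 was at 59.2% and 38.3%, 61.5% and 44.9%, and 55.4% and 45.5% of the 3 classes in the same order, and the ranges of the classes overlapped.

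In IkE5, Foxp3 was found at a smaller share of these sites than of the regions with Ikaros. A Foxp3 peak was present at 191 sites (58.1%; 95% Wilson interval 52.7 to 63.3) in IkE5 library 1 and at 141 (42.9%; 37.6 to 48.3) in library 2. Regions with Ikaros had one at 80.1% and 84.6%, so that both IkE5 libraries were lower for sites without Ikaros. The mean was 50.5 ± 10.7%, against 82.4 ± 3.13% (SD, n = 2 libraries), a difference of -31.9 points with an exact paired permutation p of 0.5, the smallest that 2 libraries allow. Set against regions with Ikaros in 1 list only, at 57.7% and 62.3%, the libraries went in opposite directions, and the difference of -9.54 points had an exact p of 1.0. Of the 329 sites, 99 (30.1%) had Foxp3 in both IkE5 libraries, 134 (40.7%) in 1 and 96 (29.2%) in neither; over all 10885 regions, 70.6% had it in both and 7.78% in neither. The 2 WT Foxp3 lists were used for the choice, so every region has Foxp3 in WT by design, and no genotype test of Foxp3 is given.

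p300 was found at few of these sites. It was at 36 (10.9%; 8.01 to 14.8) and 24 (7.29%; 4.95 to 10.6) sites in IkE5, against 27 (8.21%; 5.7 to 11.7) and 19 (5.78%; 3.73 to 8.84) in WT. Foxp3 regions with Ikaros had it at 52.4% and 40.7% in IkE5, against 60.4% and 49.8% in WT, and no library overlapped between the sets. Over the 4 libraries, sites without Ikaros averaged 8.05 ± 2.17%, against 50.8 ± 8.13% with Ikaros (SD, n = 4), a difference of -42.8 points with an exact paired permutation p of 0.125, the smallest possible, and 0.125 after adjustment over 3 targets. Regions with Ikaros in 1 list averaged 20.7 ± 4.6%, 12.6 points above the sites without Ikaros, with the same exact p of 0.125. Comparisons with Ikaros in 1 list, here and for the other targets, were added after values had been seen. Each SD over 4 libraries, here and for the other targets, pools both genotypes and so includes any difference between them. With Ikaros library 2 alone defining the sites, the difference from regions with Ikaros was -26.2 points.

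Between genotypes p300 at sites without Ikaros did not differ beyond the spread of libraries. The mean share was 9.12 ± 2.58% in IkE5 and 6.99 ± 1.72% in WT (SD, n = 2 each), a difference of 2.13 points with an exact permutation p of 0.667 (smallest possible 0.333). Within library number, IkE5 minus WT was 2.74 and 1.52 points at sites without Ikaros, and -8.0 and -9.17 points at Foxp3 regions with Ikaros. The p300 lists as a whole were slightly longer in IkE5 than in WT within each number, as given above. All regions were chosen from WT lists, and how far this lowers IkE5 shares, for p300 or the other targets, was not tested. The difference of the genotype effects between the sets was 10.7 points, with an exact permutation p of 0.333, the smallest possible, and 0.5 after adjustment. With Ikaros library 1 alone defining the sites, IkE5 minus WT was 0.39 points, and with Ikaros library 2 alone it was -2.48 points.

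NFAT1 was the rarest of the targets. It was at 8 (2.43%; 1.24 to 4.72) and 5 (1.52%; 0.651 to 3.51) sites in IkE5, against 21 (6.38%; 4.21 to 9.56) and 14 (4.26%; 2.55 to 7.02) in WT. Both IkE5 values were below both WT values. The mean was 1.98 ± 0.645% in IkE5 and 5.32 ± 1.5% in WT (SD, n = 2 each), a difference of -3.34 points with an exact permutation p of 0.333, the smallest possible; with Ikaros library 2 alone defining the sites it was -10.4 points. The ratio of IkE5 to WT within library number was 0.381 and 0.357, and at Foxp3 regions with Ikaros it was 0.465 and 0.362, where the shares were 18.2% and 12.5% in IkE5, against 39.1% and 34.5% in WT. The NFAT1 lists as a whole were also shorter in IkE5, as given above. Over the 4 libraries, sites without Ikaros averaged 3.65 ± 2.15%, against 26.1 ± 12.7% with Ikaros (SD, n = 4; exact paired permutation p of 0.125, the smallest possible), and 11.4 ± 4.85% with Ikaros in 1 list. The SD with Ikaros includes the genotype difference, with means of 15.3 ± 4.01% in IkE5 and 36.8 ± 3.21% in WT (SD, n = 2 each).

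H3K27ac was present at most sites. It was at 199 (60.5%) and 196 (59.6%) sites in IkE5, against 222 (67.5%) and 199 (60.5%) in WT; the IkE5 values did not exceed the WT values. The means were 60.0 ± 0.645% in IkE5 and 64.0 ± 4.94% in WT (SD, n = 2 each), a difference of -3.95 points with an exact permutation p of 0.667. This difference was -0.456 points without WT H3K27ac library 1, -7.45 points without WT H3K27ac library 2 and -1.86 points with Ikaros library 2 alone defining the sites. Foxp3 regions with Ikaros had H3K27ac at 91.4% and 92.5% in IkE5, against 94.8% and 92.4% in WT. Over the 4 libraries, sites without Ikaros averaged 62.0 ± 3.67%, against 92.8 ± 1.44% with Ikaros and 80.6 ± 3.42% with Ikaros in 1 list (SD, n = 4), each with an exact paired permutation p of 0.125, the smallest possible.

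The lower shares were found near genes and away from them. Sites without Ikaros minus regions with Ikaros was -36.2 points for p300 among regions within 2 kb of a gene end and -48.2 points among the rest. The same differences were -15.0 and -29.5 points for NFAT1 and -14.7 and -34.0 points for H3K27ac, each with an exact paired permutation p of 0.125, the smallest possible (n = 4 libraries). Among regions in such joined WT H3K27ac regions the difference was -40.7 points for p300 and -21.3 points for NFAT1, with the same exact p. Over all regions, the differences of -22.4 points for NFAT1 and -30.8 points for H3K27ac became -10.4 and -20.4 points with Ikaros library 2 alone defining the sites, and -23.2 and -19.4 points with library 1 alone.

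**Figure D3:**
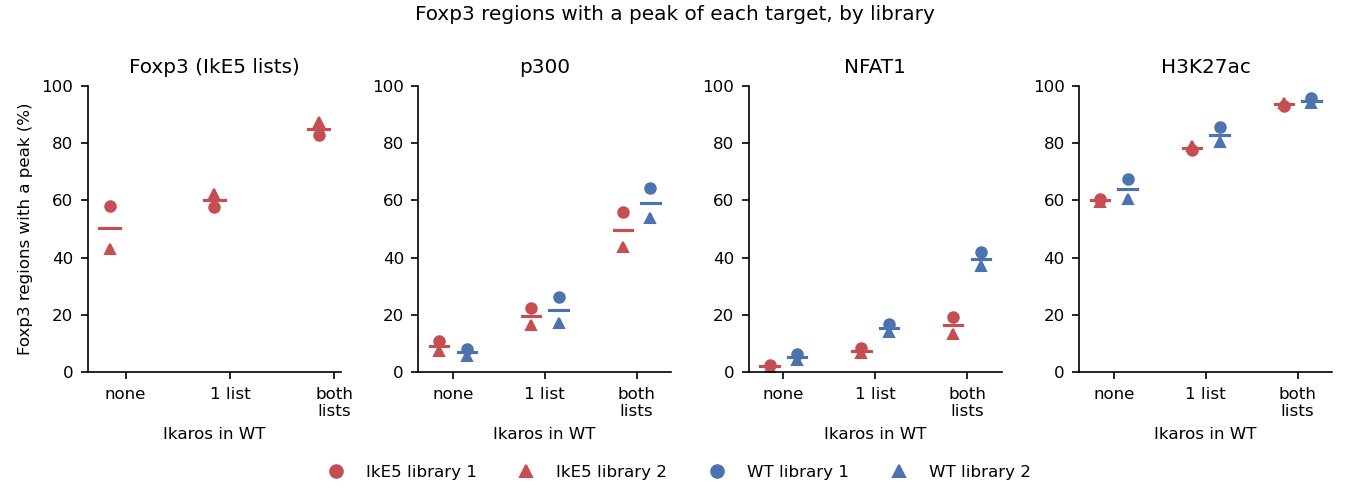
Share of Foxp3 regions that held a peak (vertical axis, percent) in each IkE5 library (red) and each WT library (blue), by the number of WT Ikaros lists with a peak at the region; horizontal bars are means of 2 libraries. For p300, NFAT1 and H3K27ac every library was lowest at regions without Ikaros, and p300 there was at 10.9% and 7.29% in IkE5 and 8.21% and 5.78% in WT.

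Most sites had few other peaks. Over the 14 other lists, the median site was found in 4, against 8 for Foxp3 regions with Ikaros. At 251 sites neither p300 nor NFAT1 was found in any library, p300 was found in at least 1 library at 64, NFAT1 at 37, and both factors at 23. At 25 sites none of the 14 lists had a peak. No site was in all 14, against 828 regions with Ikaros, and 14 sites (4.26%) were in 9 or more, against 4843 (45.9%).

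The 6 sites found in most lists lay at genes of varied function. The site in Tnrc6b, which encodes a protein of the microRNA silencing complex (chr15:80800676-80801210), was in 13, all but Foxp3 of IkE5 library 2; an Ikaros peak lay 1.1 kb away. The site in Atp5md, a small subunit of mitochondrial ATP synthase (chr19:47089700-47090466), was in 11. Those upstream of Foxo3, a forkhead factor of quiescent cells (chr10:42277768-42278315), in Fam160a2 (chr7:105399000-105399546), in Trpm6, a magnesium channel (chr19:18747420-18747972), and in Cenpl, a centromere protein (chr1:161071153-161071739), were in 10 each. The Foxo3 site lay 1.35 kb before the gene's start and had Foxp3 and p300 in both IkE5 libraries and p300 in WT library 2. The nearest Ikaros peak was 1.08 kb from the Foxo3 site and 41 bp from the Atp5md site. It was 363, 358 and 112 bp from the sites in Fam160a2, Trpm6 and Cenpl.

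**Figure D4:**
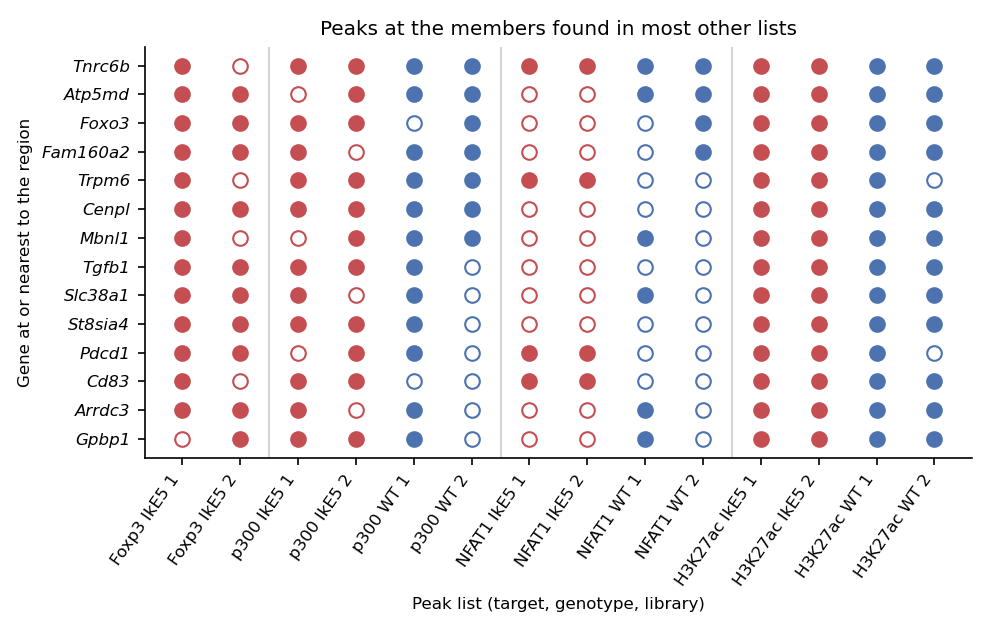
The 14 Foxp3 sites without Ikaros found in 9 or more of the other lists (rows, by gene) and each of the 14 lists (columns, IkE5 in red and WT in blue); a filled circle is a peak, an open circle none. H3K27ac was present at all 14 sites in both IkE5 libraries, and NFAT1 in both IkE5 libraries at Tnrc6b, Trpm6, Pdcd1 and Cd83.

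Sites whose p300 or NFAT1 peaks followed genotype in both libraries were few. A site is called IkE5 only where both IkE5 libraries and neither WT library had the peak, and WT only in the reverse case. For p300, 4 of the 64 sites with any p300 peak (6.25%) were IkE5 only, against 2.56% over all Foxp3 regions, and 3 (4.69%) were WT only, against 7.66%. For NFAT1, 3 of 37 were IkE5 only (background 0.907%) and 5 were WT only (background 27.2%). For H3K27ac, 5 of 249 (2.01%) were IkE5 only (background 0.627%) and 16 (6.43%) were WT only (background 1.61%), while 160 (64.3%) had it in all 4 libraries (background 88.1%). With so few sites these shares are descriptions.

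The IkE5-only p300 sites lay in Fyn, a Src-family kinase of T cell receptor signalling (chr10:39376489-39377242), in Tspan14, a tetraspanin (chr14:40959031-40959605), 15.8 kb from Cd83, a surface protein of activated lymphocytes (chr13:43768761-43769282), and 243 kb upstream of Tshz2, a zinc finger factor (chr2:169388463-169389175). The Cd83 site also had NFAT1 in both IkE5 libraries and neither WT library. The other IkE5-only NFAT1 sites lay in Trpm6 and 2.33 kb upstream of Pdcd1, which encodes the inhibitory receptor PD-1 (chr1:94054889-94055401). At Pdcd1, p300 was found in IkE5 library 2 and WT library 1, and H3K27ac in all libraries except WT library 2. A second Foxp3 region within 10 kb of Pdcd1 had Ikaros.

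In the other direction, the site in Zfpm1, which encodes the GATA cofactor FOG1 (chr8:122284120-122284794), had both p300 and NFAT1 in both WT libraries and in neither IkE5 library, and Foxp3 in neither IkE5 library. Its H3K27ac was kept, covering 5.0 and 5.0 kb of the surrounding 5 kb in IkE5, against 4.71 and 4.08 kb in WT. Another WT-only p300 site lay 22.2 kb downstream of Pdhx, a part of the pyruvate dehydrogenase complex (chr2:102998304-102998824). WT-only NFAT1 sites lay in Tcf7, encoding the naive T cell factor TCF-1 (chr11:52268309-52268838), 2.84 kb upstream of Cdkn1b, encoding the cell cycle inhibitor p27 (chr6:134916832-134917563), in Atp5md and 29.7 kb from Rassf3 (chr10:121505914-121506560). The Cdkn1b site, 10.8 kb from any Ikaros peak, had Foxp3 in both IkE5 libraries. An Ikaros peak lay 915 bp from the Zfpm1 site, 260 bp from the Pdhx site, 2.26 kb from the Tcf7 site and 64 bp from the Rassf3 site.

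H3K27ac was IkE5 only at sites 4.74 kb downstream of Cym, in Mast4 and Tmod3, 4.64 kb upstream of Desi2 and 14.8 kb from Sik1. The first 5 WT-only sites lay in Shisa5, Jam2, Wdr20 and Rsu1 and 3.54 kb upstream of Lrr1. The sites at Tmod3, Sik1 and Rsu1 had no peak other than H3K27ac among the 14 lists. A class counts only peaks that touch the site. In the surrounding 5 kb, H3K27ac covered 0.979 kb in WT library 1 at Cym, and 0.787 and 0.5 kb in WT at Sik1. In IkE5 it covered 1.56 and 1.75 kb at Wdr20, and 0.994 and 1.33 kb at Shisa5. At Mast4, Tmod3 and Desi2 neither WT library had any there, and at Jam2, Rsu1 and Lrr1 neither IkE5 library did.

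The length of H3K27ac around the sites was compared between genotypes with limma, on log2 of the scaled covered length in the 5 kb around each region plus 500 bp, over all 10169 Foxp3 regions with a mean of at least 500 bp. Of the 329 sites, 217 passed this filter. The median log2 ratio of IkE5 to WT was -0.04 at these sites and -0.04 at the other regions. By limma with Benjamini-Hochberg adjustment at 0.05, 2 sites were lower in IkE5 and 0 higher, where 0.57% of all regions were lower and 0.226% higher; at an unadjusted p under 0.05 there were 28 of 217 sites, where 9.59% of all regions were. The site in St6galnac5, a sialyltransferase gene (chr3:152941665-152942198), had 0 and 790 bp covered in IkE5, against 3070 and 3077 bp in WT (log2 ratio -2.15 ± 0.41 SE, limma adjusted p of 0.0209). The site in Jam2, which encodes an adhesion molecule of cell junctions (chr16:84824699-84825286), had 0 and 0 bp in IkE5, against 1954 and 2093 bp in WT (log2 ratio -2.36 ± 0.53 SE, limma adjusted p of 0.0401). At each the IkE5 values lay below both WT values. The ratios depend on the added 500 bp, and the calls held in 3 of 11 alternatives each, with adjusted p between 8.07e-07 and 0.653 for St6galnac5 and between 0.00335 and 0.805 for Jam2. St6galnac5 lost its call without IkE5 library 1 (0.0912), without WT library 1 (0.219) and without WT library 2 (0.653), and Jam2 without WT library 1 (0.108) and without WT library 2 (0.805), all limma adjusted p.

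**Figure D5:**
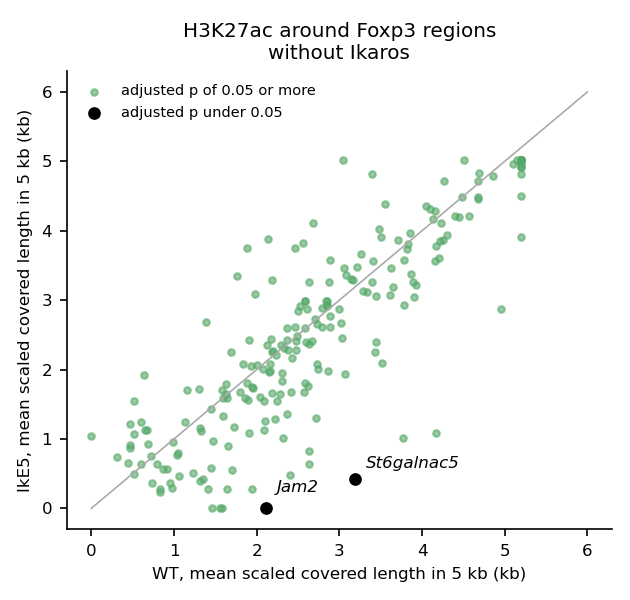
Mean scaled length covered by H3K27ac in the 5 kb around each of the 217 Foxp3 sites without Ikaros that were tested (kb), in IkE5 (vertical axis) against WT (horizontal axis), each the mean of 2 libraries; the line marks equal length. Black points are the 2 sites past limma's threshold, St6galnac5 and Jam2, both lower in IkE5.

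Genes of known T cell function were read against lists. Of 9219 protein-coding genes with any Foxp3 region in the gene or within 10 kb, 330 (3.58%) had a site without Ikaros. Of the 237 such genes in 15 lists, 17 did (7.17%). Genes with more Foxp3 regions have more chances of a site, and the share is not corrected for this. For 128 genes, among them Mbd2 and Ebf1 from the lists, every Foxp3 region within 10 kb was one without Ikaros.

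In the Treg signature, 2 of 25 genes had a site, Cish and Tgfb1, which encodes the suppressive cytokine TGF-β1. The Tgfb1 site, 2.48 kb downstream of the gene (chr7:25707559-25708152), had Foxp3 and p300 in both IkE5 libraries and p300 in WT library 1, and its 5 kb window held 4.59 and 4.97 kb of H3K27ac in IkE5, against 3.55 and 3.08 kb in WT. Both IkE5 lengths were above both WT lengths there, also when scaled to the library total. The site was not called (log2 ratio 0.45 ± 0.26 SE, limma adjusted p of 0.747). The Cish site lay in the neighbouring gene Mapkapk3 (chr9:107288775-107289321) and had H3K27ac alone in all 4 libraries.

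Among naive and quiescence genes, 2 of 16 had a site, Tcf7 and Foxp1, a forkhead factor of naive T cells; Foxp1 had 17 Foxp3 regions, of which 1 was without Ikaros (chr6:99374482-99375220). At this site Foxp3 was in neither IkE5 library, and H3K27ac covered 3.28 and 4.43 kb of the window in IkE5, against 5.0 and 5.0 kb in WT. Scaled to the library total, the genotypes overlapped, with 3029 and 4800 bp in IkE5, against 4226 and 6164 bp in WT. The site was not called (log2 ratio -0.38 ± 0.29 SE, limma adjusted p of 0.953). Among activation-induced genes, 2 of 19 had a site: Dusp1 and Cd69, an early activation antigen. The Dusp1 site (chr17:26508282-26508788) spanned the start of the gene, with its centre 63 bp before it. The site had Foxp3 in both IkE5 libraries, p300 in WT library 1 and NFAT1 in WT library 2. Its H3K27ac window was covered over 5.0 and 5.0 kb in IkE5, against 4.9 and 5.0 kb in WT. The Cd69 site, 6.82 kb from the gene (chr6:129260002-129260507), had Foxp3 in both IkE5 libraries and no other peak at the site.

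In T cell receptor signalling 3 of 27 genes had a site, Fyn, Plcg1 and Rasgrp1, the Ras activator downstream of the receptor. Rasgrp1 had 2 of its 3 Foxp3 regions without Ikaros. One spanned its start (chr2:117342642-117343383), where an Ikaros peak lay 44 bp away, and one lay 29.0 kb into the gene (chr2:117313612-117314227). Both had H3K27ac in all libraries and Foxp3 in neither IkE5 library. Among partners of Foxp3 and NFAT, 3 of 28 had a site: Elf1, an Ets factor (chr14:79521675-79522191), Kat2b, the acetyltransferase PCAF (chr17:53568060-53568579), and Tcf12, the E protein HEB (chr9:72111552-72112102), with Foxp3 in both IkE5 libraries at Tcf12 alone.

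In the remaining lists, co-inhibitory and exhaustion genes had 1 of 9 (Pdcd1), Ikaros family and corepressor genes 1 of 22 (Mbd2, a NuRD subunit; 4.53 kb from the gene, with Foxp3 in IkE5 library 1 and H3K27ac in IkE5 library 2), and housekeeping genes 2 of 15, with Eef2 among them. B cell markers had 1 of 5: the Ebf1 site (chr11:45007891-45008478), 115 kb from Ikaros, was in 0 of the 14 other lists. No site was found at 6 effector cytokine genes, 7 chemokine receptor and homing genes, 17 interferon-induced genes, 35 cytosolic ribosomal protein genes, 3 myeloid markers and 3 CD8 and natural killer cell markers that had a Foxp3 region.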

How the data were processed

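Of 22 samples described, 18 peak lists from WT and IkE5 Treg cells were used; 4 inputs were not analysed here. The deposited lists hold only chromosome, start and end in mm10, with no score, and were deposited per library. Fixation used 1% formaldehyde for 5 min (histone) or 30 min (transcription factors), per the labels' protocols, which do not say which time applied to p300. Tools named per the submitters' processing notes are FastQC, Bowtie2, MACS2, bedtools and HOMER; which of these made the deposited peaks, and the threshold, are not given in the sources used here. Library, not region, is the replicate; the labels do not say that libraries came from separate animals, so p-values may measure technical spread. The largest share of identical peaks between lists was 0.745%.

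Shares per library were compared with exact permutation tests, 2-sided (Python 3.11.15, scipy 1.17.1), adjusted by Benjamini-Hochberg over 3 targets. H3K27ac covered length, scaled to the library total, was tested with limma 3.58.1 in R 4.3.3. On simulated data for this comparison, limma called 34.3% of 99 regions with a log2 change of 2, 1.01% of 99 with a change of 1 and 0 of 9806 unchanged ones. Simulated lengths had no upper limit, whereas real ones end at the 5 kb window, so these rates do not hold for rises near full cover. An Ikaros overlap needed 1 bp, and genes came from RefSeq GRCm38.p6. The members, the 15 gene lists of 369 genes, the tests and the rule for named sites were chosen with earlier results of these data known. Named were up to 3 sites per gene list, those in the most other lists, those closest to and farthest from Ikaros, those with genotype-specific peaks, those past limma's threshold, and promoters for sequence. A few sites that this rule names are not reported here.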

Additional observations from a re-analysis of the deposited data

Results flagged for a closer look

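The mean p300 share of IkE5 lay above that of WT in one of the 2 sets of Foxp3 regions and below it in the other. The libraries of the genotypes overlapped in each set. At sites without Ikaros it was higher in IkE5 than in WT by 2.13 points on average, with 36 and 24 sites in IkE5, against 27 and 19 in WT, and by 2.74 and 1.52 points within library number. At Foxp3 regions with Ikaros it was lower in IkE5 within both numbers, by -8.0 and -9.17 points. Both sets were chosen from WT lists, and the p300 lists as a whole were slightly longer in IkE5. How far the choice from WT lowers IkE5 shares was not tested. IkE5 against WT had an exact permutation p of 0.667 in each set. The difference between the sets had an exact permutation p of 0.333, the smallest that 2 libraries against 2 allow, and 0.5 after adjustment. The part at sites without Ikaros rests on few regions: 4 sites had p300 in both IkE5 libraries and neither WT library, and 3 had the reverse. Among Foxp3 regions with Ikaros, 207 were IkE5 only and 628 were WT only for p300. The difference at sites without Ikaros also depends on the Ikaros lists. With Ikaros library 1 alone defining the sites, IkE5 minus WT was 0.39 points, and with Ikaros library 2 alone it was -2.48 points. The cause was not tested.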

How the results depend on the processing

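Of 193 alternative values, 127 kept their direction and their side of the threshold, or stayed within 1.5 times for a count; the differences in share between sites without Ikaros and regions with Ikaros did so throughout, though with 2 or 4 libraries their exact p cannot pass 0.05. Their size moved: with Ikaros library 2 alone they were -26.2 points for p300, -10.4 for NFAT1 and -20.4 for H3K27ac, and with library 1 alone -43.0, -23.2 and -19.4. Which regions count as lacking Ikaros depended on the lists: 645 to 1153 sites without one Ikaros library, and 2282 to 3463 without one Foxp3 library. Without one Ikaros library, the IkE5-only and WT-only counts were 12 to 21 and 17 to 18 for p300, 4 to 7 and 23 to 47 for NFAT1, and 9 to 12 and 22 to 54 for H3K27ac, and 29.3% to 33.0% of sites lay within 2 kb of a gene end. With Ikaros peaks widened by 500 bp, that share was 20.5%, and 3 sites had WT-only NFAT1. Leaving out one library gave IkE5 minus WT values for p300 of -2.48 (reversed, without Ikaros library 1) to 3.95 points. The difference of H3K27ac genotype effects between sets was -4.58 to 0.00826 points, the last reversed without WT H3K27ac library 1.

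limma's calls moved most. With 100 bp added in place of 500, without scaling, or with windows of 2 kb or 20 kb, 0 regions and 0 sites were lower and 0 regions higher. With 2000 bp added, 152 regions and 7 sites were lower and 62 regions higher. Without the filter, 15 regions and 1 site were higher. Leaving out one library gave 0 to 224 regions lower, 0 to 8 sites lower and 0 to 41 regions higher. The lone library is then assumed to vary like the other genotype's. With the library number as a replicate block, 115 regions and 1 site were lower and 42 regions higher. The number is not said to mark a shared preparation. The block cannot change a difference in share (2.13 points for p300), because each genotype has a library of each number. Those alternatives, counted among the 127, are therefore no check. The causes were not tested. Peak lists without heights limit all of these comparisons.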

Other observations

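Of the 14 sites found in 9 or more of the other lists, 3 lay at further genes outside the rule for named sites and are given here because they stand out in the map of peaks; they were chosen after their values were seen. The site in Mbnl1, a splicing regulator (chr3:60494920-60495485), had p300 in IkE5 library 2 and in both WT libraries and lay 6.16 kb from Ikaros. The site in Slc38a1, a glutamine transporter (chr15:96640505-96641105), had Foxp3 in both IkE5 libraries and H3K27ac over 5.0 kb of its window in all 4 libraries. The site 79.5 kb upstream of St8sia4, a polysialyltransferase (chr1:95747204-95747715), had Foxp3 and p300 in both IkE5 libraries and p300 in WT library 1. A site in 8 lists lay 4.81 kb from Mir142, a microRNA of blood cells, on chromosome 11 (chr11:87751528-87752050), inside an acetylated WT region of 20191 bp. The site in Sesn3, a stress-induced regulator of metabolism (chr9:14280576-14281190), was also in 8 lists, with p300 in IkE5 library 2 and WT library 2.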
